A study of Sus scrofa with 21 samples.

Results

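Histone genes and the genes of enzymes that modify histones or DNA were chosen by name. On the pig array, 76 gene names begin with HIST and a digit, H1F, H2AF or H3F for histones, or with HDAC, SIRT, KDM, JMJD, KAT, SETD, MLL, EHMT, SUV, DNMT, TET or PRMT for enzymes, out of 48527 named and unnamed features. They comprise 11 histone genes, 60 enzyme genes and 5 MLLT genes, read by 153 of the 60305 probes. The MLLT genes share the MLL prefix but encode proteins fused to MLL in leukaemia, not methyltransferases, and they were counted apart. Of the 76 genes, 71 were tested. The other 5 (H1FOO, HDAC5, MLLT4, PRMT1 and SETDB1) had all their probes among the 25% with the lowest mean signal.

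Total RNA came from whole blood of pigs aged 60 days that were fed a standard diet freely. The DD pigs (SLAdd, 10 arrays, 5 litters) are inbred minipigs homozygous for a haplotype of the swine leukocyte antigen complex, and the LW pigs (Large White, 11 arrays, 6 litters) are a commercial breed. The breeds differ across the whole genome, so no difference below can be tied to a single locus. Values are the deposited log2 levels of a one-colour array, normalized between arrays, and a difference is DD minus LW on that log2 scale, estimated with limma in a model that also held the chip and, as a random block, the sow. In whole blood, fewer cells of a type and less RNA per cell cannot be told apart.

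The arrays were not alike in brightness. Brightness, taken as the 75th percentile of an array's processed signal in log2, averaged 7.53 ± 0.54 (SD, n = 10) for DD arrays and 8.22 ± 0.38 (SD, n = 11) for LW arrays. It differed little between breeds on chip 1 (means 7.95 and 8.02), more on chip 2 (7.55 and 8.31) and most on chip 3 (7.09 and 8.36). Each array had between 44.7% and 63.8% of its probes well above background, and 53 of the 76 genes were well above background on all 21 arrays. Precision is limited by how many arrays there are.

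DNA in the nucleus is wound around octamers of the core histones H2A, H2B, H3 and H4, and the linker histone H1 binds between them. Replication-dependent histone genes, named HIST, are clustered in the genome and transcribed mainly in S phase, and their mRNAs end in a stem-loop in place of a poly(A) tail. Variant histones such as H2A.Z (H2AFZ) and H3.3 (H3F3A, H3F3B) are made throughout the cell cycle from polyadenylated mRNAs. Acetyl and methyl groups are set on histone tails by acetyltransferases and methyltransferases and removed by deacetylases and demethylases, and DNMT and TET enzymes set and oxidize methyl groups on cytosine. In blood, mature red cells of mammals have lost their nucleus, and white cells keep theirs.

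Of the 71 genes tested, 6 differed between breeds at an adjusted p below 0.05, compared with 21.0% of all 35578 features. HIST2H2AA4, KAT2B and SIRT6 were higher in DD pigs, where 11.4% of all features were higher, and SUV420H1, HDAC3 and KDM1B were lower, where 9.57% were lower. The share called among these genes was therefore below the share over the array. The median difference was -0.09 over the 71 genes and -0.04 over all features, with 28 genes above 0 and 43 below. In no gene were the 2 breeds fully separated, which occurred in 0.382% of all features. A further 11 genes had an adjusted p below 0.1 without passing the threshold, of which HIST1H2AA, HDAC6, SIRT3, SETD7 and MLLT6 were above 0 and H2AFZ, SETD6, SUV39H2, JMJD4, DNMT1 and MLLT3 below.

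**Figure D1:**
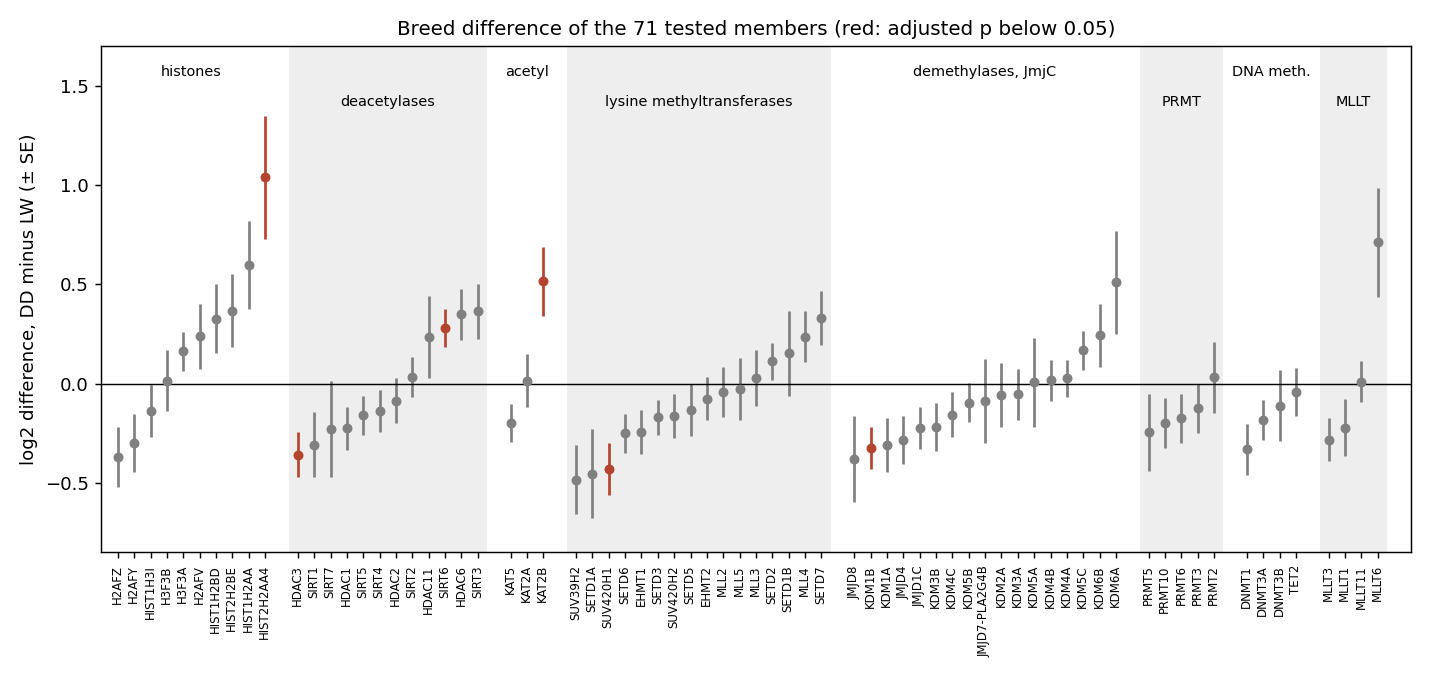
Log2 difference, DD minus LW, with its SE (bars) for the 71 tested genes, grouped by class and ordered within it. The 6 genes past the threshold are red, and the only gene above 1 is HIST2H2AA4.

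The 6 calls changed when single arrays were left out, as did the share of all features called. Of the 6, 3 were still called without DD_01, DD_08, DD_10, DD_19, LW_04, LW_12, LW_14 or LW_24. The number of the 6 still called was 2 without DD_23 or LW_05, and 0 without DD_21, LW_18 or LW_22. Across the named fits that kept 3 or 2 of the 6, 11.1% to 19.2% of all features were called. Without DD_21 the 2 genes called were KDM6A and SIRT3, and without LW_18 or LW_22 no gene was called. Of all features, 10.6%, 10.8% and 12.4% were called without DD_21, LW_18 and LW_22. Without DD_06 or LW_07 all 6 were called, among 14 and 15 genes, beside 28.3% and 27.7% of all features. The calls also depended on the sow block, whose estimated correlation was negative (-0.11), so that the model took pigs of 1 litter as less alike than pigs of different litters. Without the block 3 of the 71 genes (HIST2H2AA4, HDAC3 and SUV420H1) and 5106 features were called, against 7459 with it. On litter means, where 19.3% of all features were called, the same 3 were called, with HIST1H2AA and MLLT6. No gene was called without chip 3, and with array brightness as a covariate SIRT3 alone was called (0.65, limma adjusted p = 0.0263). The shares of all features called in these 2 fits were 1.51% and 2.19%.

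HIST2H2AA4, a replication-dependent H2A gene, had the largest difference of the 71 genes. Its log2 level ran from 10.4 to 12.7 with a median of 11.3 in DD pigs, and from 9.42 to 11.8 with a median of 10.2 in LW pigs. All 10 DD pigs were above the LW median, but LW_07 (11.7) and LW_15 (11.8) lay within the upper DD range. Theirs were the 2 dimmest LW arrays (brightness 7.37 and 7.92). The difference was 1.04 ± 0.31 (SE), a 2.05-fold higher level (limma adjusted p = 0.0263). Within chips it was 0.44 (chip 1), 0.83 (chip 2) and 2.00 (chip 3), and the gap in brightness between breeds was smallest on chip 1 and largest on chip 3. The part of brightness in the difference was not tested apart from this. With brightness in the model it fell to 0.28 (adjusted p = 0.915), and without chip 3 it was 0.67 (adjusted p = 0.495). The call was also lost without DD_21, LW_12, LW_18 or LW_22, with a highest adjusted p of 0.0549.

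The HIST2H2AA4 level is read by 2 probes of identical sequence, which are therefore repeats of 1 measurement. Their differences were 1.05 and 1.02, and their levels on an array differed by at most 0.22. The array also holds 2 identical probes for SIRT4 and for KDM4B, with differences of -0.08 and -0.26 for SIRT4 and of 0.02 and 0.01 for KDM4B. Both HIST2H2AA4 probes cover the histone stem-loop. A stem of 6 bases that begins with GG, a loop of TTTC and the complementary stem were searched on both strands of all probes. On the strand of the probe, 3 probes (0.00497% of all) hold it, and they are the 2 of HIST2H2AA4 and 1 of HIST1H2BD. On the other strand it occurs in 1 probe, named by an accession. The windows around it are shown, with the stem-loop in capitals, since they mark which ends of histone mRNA these probes read.
HIST2H2AA4: aatcaaaGGCTCTTTTCAGAGCCacccact
HIST1H2BD: ccccaaaGGCTCTTTTCAGAGCCacc
The letters AATAAA, the signal for polyadenylation, start at base 52 of the HIST2H2AA4 probe, after the stem-loop, and at base 2 of the HIST1H2BD probe, before it. They are in 16 of the 153 probes (10.5%), in 10.3% of all probes on the same strand and in 4.32% on the other. A match describes the probe only. The HIST1H2BD probe with the stem-loop differed by -0.19 ± 0.19 (SE, limma adjusted p = 0.484), so probes that hold the same stem-loop did not give the same difference.

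HIST1H2BD, a replication-dependent H2B gene on chromosome 7 at 20821090 to 20829491 (Sscrofa11.1), had 5 probes and a mean difference of 0.33 ± 0.17 (SE, adjusted p = 0.172). Its probes ranged from -0.19 to 0.75, and the highest was past the threshold (adjusted p = 0.0456), where 21.7% of all single probes on the array passed. The next 3 probes gave 0.37, 0.39 and 0.31. They share a run of 20 bases, in capitals, that also lies in a probe of another H2B transcript, so near-identical H2B genes cannot be told apart by them.
HIST1H2BD probe 1: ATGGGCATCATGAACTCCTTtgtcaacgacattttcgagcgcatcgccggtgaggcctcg
HIST1H2BD probe 2: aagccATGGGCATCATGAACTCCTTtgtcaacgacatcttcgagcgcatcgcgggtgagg
HIST1H2BD probe 3: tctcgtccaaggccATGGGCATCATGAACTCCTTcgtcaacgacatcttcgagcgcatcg
HIST2H2BE, another H2B gene, was read by 2 probes that gave 0.52 (adjusted p = 0.00636) and 0.21 (adjusted p = 0.628). Their mean was 0.37 ± 0.18 (SE, adjusted p = 0.151).

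HIST1H2AA, an H2A gene, did not pass the threshold. Its level was 8.36 to 10.6 (median 8.99) in DD pigs and 7.89 to 9.45 (median 8.29) in LW pigs, again with LW_07 and LW_15 as the highest LW pigs and with all 10 DD pigs above the LW median. The difference was 0.60 ± 0.22 (SE, adjusted p = 0.0579). Its single probe shares 58 of 60 bases with a probe named LOC100155761, which gave 0.52 (adjusted p = 0.0977), so its gene is uncertain. HIST1H3I, an H3 gene, differed by -0.14 (adjusted p = 0.472).

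None of the 5 variant histone genes tested passed the threshold. For H3.3, H3F3A ranged from 16.9 to 17.5 in DD pigs and from 16.5 to 17.4 in LW pigs, with a difference of 0.16 ± 0.10 (SE, adjusted p = 0.247). H3F3B gave 0.01 ± 0.15 (adjusted p = 0.954), with DD_06 the highest pig (14.2). A feature described as histone H3.3, which carries no member name, has 29 probes. Its differences ran from -0.25 to 0.08 with a mean of -0.01 and no probe past the threshold. Among its probes are some that share runs of 48 and 26 bases with the H3F3B probe, so it may read the same transcript as H3F3B. H2AFZ encodes H2A.Z, which marks promoters, and all 6 of its probes were lower in DD pigs, from -0.23 to -0.45, with a mean of -0.37 ± 0.15 (SE, adjusted p = 0.0836). Levels of H2AFZ were 11.4 to 12.8 in DD pigs and 11.7 to 12.9 in LW pigs, and 8 of 10 DD pigs lay below the LW median. The H2AFZ probe with the value -0.26 has the same 60 bases as a probe named SLC39A14 and cannot be assigned to either gene. H2AFY, which encodes macroH2A, had 3 probes near -0.30 (adjusted p = 0.14), 2 of which share a run of 45 bases. H2AFV, a second H2A.Z gene, gave 0.24 ± 0.16 (adjusted p = 0.299).

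**Figure D2:**
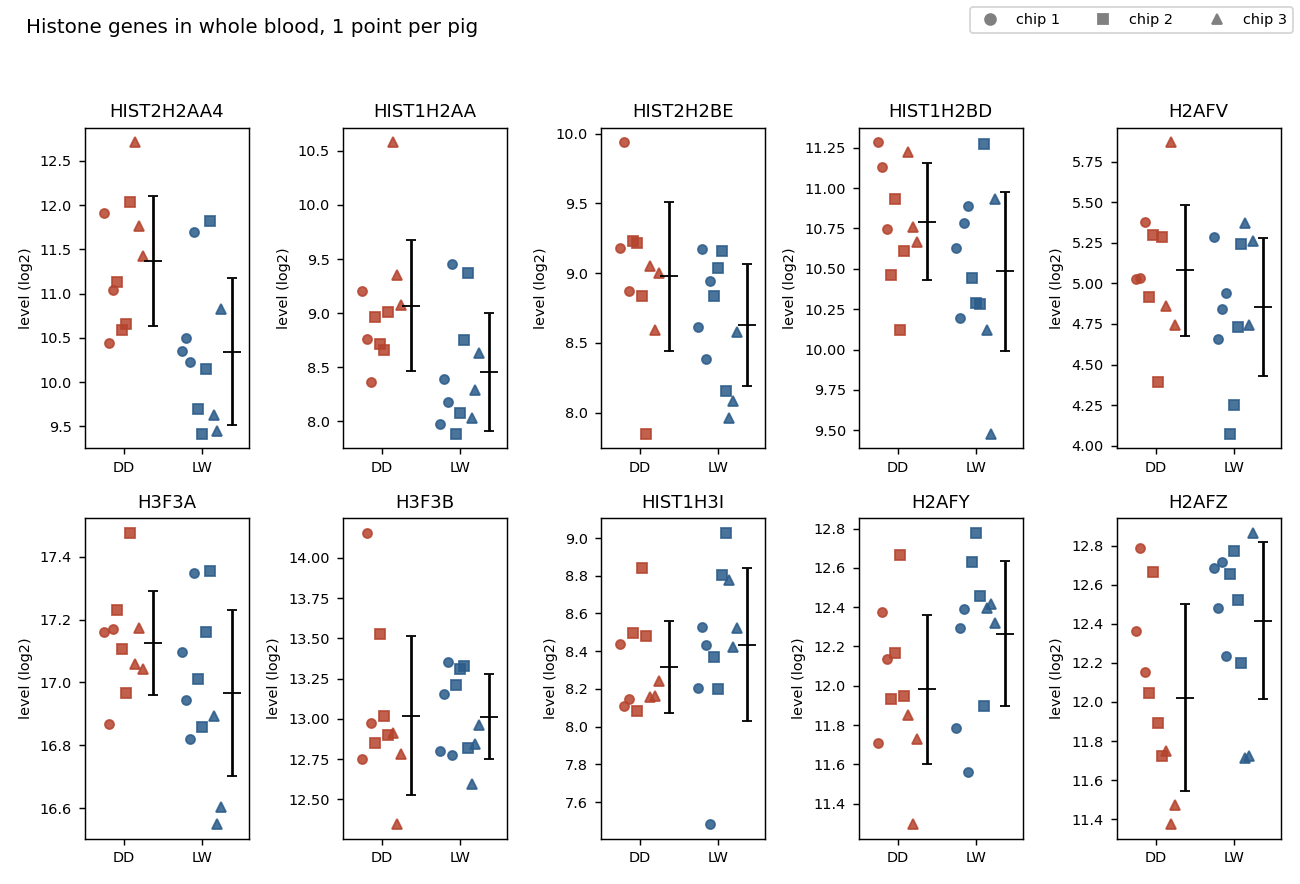
Log2 level of the 10 tested histone genes, 1 point per pig, with the mean and SD of each breed as bars and the chip as the marker shape. For HIST2H2AA4, LW_07 (11.7) and LW_15 (11.8) stand above the other LW pigs, and the breeds overlap in every gene.

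The deacetylases remove acetyl groups from lysine, the HDAC enzymes with zinc and the sirtuins with NAD. Of 12 tested, SIRT6 was higher and HDAC3 lower in DD pigs. HDAC3 is the catalytic subunit of the NCoR and SMRT corepressors. Its level was 6.84 to 7.31 (median 7.03) in DD pigs and 7.06 to 8.15 (median 7.29) in LW pigs, and 9 of 10 DD pigs lay below the LW median. The difference was -0.36 ± 0.11 (SE, limma adjusted p = 0.0316), with -0.28, -0.39 and -0.42 on chips 1 to 3. LW_09 was the highest LW pig (8.15), and without it HDAC3 was still called. It was not called without DD_01, DD_08, DD_21, LW_05, LW_18 or LW_22, with a highest adjusted p of 0.0615. Of its 2 probes, the one well above background on every array gave -0.31 (adjusted p = 0.0267). The other, well above it on 2 DD and 9 LW arrays, gave -0.40 (adjusted p = 0.131). Whether both read the HDAC3 strand was not tested.

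SIRT6 deacetylates H3 and acts in DNA repair and glucose metabolism. Its level was 6.60 to 7.27 (median 6.88) in DD pigs and 6.47 to 6.99 (median 6.62) in LW pigs. The breeds overlapped, and the difference was 0.28 ± 0.10 (SE, adjusted p = 0.0412). SIRT6 was not called without the sow block (adjusted p = 0.059) or on litter means (adjusted p = 0.07). This value is a mean of 5 probes that did not give the same difference, and none of the 5 passed the threshold alone. A pair of them overlaps by 53 bases that hold AATAAA. Both were well above background on all arrays and gave 0.06 and 0.04 (adjusted p = 0.671 and 0.796). The other 3 gave 0.62, 0.38 and 0.31, and the last of these was well above background on no array. It has the same 60 bases as a probe named Sirt6, which the filter on low signal removed. That probe averaged 3.80 in DD and 3.76 in LW pigs. A window of the overlap, with AATAAA in capitals, and the other probes show where the values part.
SIRT6 probes 1 and 2: tcaatgcAATAAAaagcaacgtttcttg
SIRT6 probe 3: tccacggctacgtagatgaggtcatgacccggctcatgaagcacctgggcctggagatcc
SIRT6 probe 4: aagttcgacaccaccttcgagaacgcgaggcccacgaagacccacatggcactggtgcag
SIRT6 probe 5: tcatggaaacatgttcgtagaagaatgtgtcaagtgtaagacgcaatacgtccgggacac
With the probe of the highest mean in place of the average, the SIRT6 difference was 0.06 (adjusted p = 0.671). The call was present in 6 of the 21 fits that each left out 1 pig, which were those without DD_06, DD_11, DD_13, LW_07, LW_09 or LW_15.

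SIRT3, the main mitochondrial deacetylase, had the highest difference of the class. Its level was 6.74 to 7.88 (median 7.72) in DD pigs and 6.55 to 7.64 (median 7.32) in LW pigs, and the difference was 0.36 ± 0.14 (SE, adjusted p = 0.062). The probe well above background on all arrays gave 0.41 (adjusted p = 0.0362). With brightness in the model the SIRT3 value rose to 0.65. HDAC6, a cytoplasmic deacetylase of tubulin, gave 0.35 (adjusted p = 0.0595) from a probe that was well above background on 1 array of each breed. HDAC1, a nuclear deacetylase of several corepressor complexes, differed by -0.23 ± 0.11 (adjusted p = 0.133) and its relative HDAC2 by -0.09 (adjusted p = 0.606). SIRT1 gave -0.31 (adjusted p = 0.176) and SIRT7, a nucleolar sirtuin, -0.23 ± 0.24 (adjusted p = 0.518). SIRT2 averaged 0.03 over 4 probes, 1 of which was higher (0.33, adjusted p = 0.0426). SIRT4 (-0.14), SIRT5 (-0.16) and HDAC11 (0.24, well above background on 4 DD and 7 LW arrays) had adjusted p of 0.355, 0.247 and 0.422.

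Among the 3 acetyltransferases, KAT2B was higher in DD pigs. KAT2B (PCAF) acetylates H3 as part of the SAGA-type complexes. Its level was 8.87 to 10.4 (median 9.67) in DD pigs and 8.57 to 9.60 (median 9.05) in LW pigs, with 8 of 10 DD pigs above the LW median. The difference was 0.51 ± 0.17 (SE, adjusted p = 0.0391), a 1.43-fold higher level from 1 probe, and it was 0.55, 0.56 and 0.43 on chips 1 to 3. With brightness in the model it was 0.39 (adjusted p = 0.577). It was not called without the sow block (adjusted p = 0.0532) or on litter means (adjusted p = 0.0654). Leaving out single pigs kept the call in 7 of 21 fits, without DD_01, DD_06, DD_10, DD_11, LW_07, LW_12 or LW_15, and the highest adjusted p was 0.0828. KAT2A (GCN5), its paralog, gave 0.01 ± 0.13 (adjusted p = 0.947), and KAT5 (TIP60), which acetylates H4, gave -0.20 ± 0.09 (adjusted p = 0.134).

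Of 16 lysine methyltransferases tested, SUV420H1 was lower in DD pigs. This enzyme sets the methyl marks of H4 lysine 20. Its level was 10.5 to 11.8 (median 11.2) in DD pigs and 11.0 to 12.0 (median 11.6) in LW pigs. DD_13 was the highest DD pig (11.8) and LW_07 the lowest LW pig (11.0), and 9 of 10 DD pigs were below the LW median. The difference was -0.43 ± 0.13 (SE, adjusted p = 0.0288), with -0.02 on chip 1, -0.36 on chip 2 and -0.98 on chip 3. It fell to -0.13 (adjusted p = 0.9) with brightness in the model and was -0.18 (adjusted p = 0.61) without chip 3. It was not called without DD_10, DD_21, DD_23, LW_12, LW_18, LW_22 or LW_24, with a highest adjusted p of 0.0607. The SUV420H1 value came from 1 probe. A probe named suv420h1, left out by the name rule for its letter case, gave 0.41 (limma adjusted p = 0.0618), opposite in sign. It was well above background on all 10 DD and 11 LW arrays. Whether both probes read the same transcript was not tested. SUV420H2, the paralog of SUV420H1, gave -0.16 ± 0.11 (adjusted p = 0.3).

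SUV39H2, a methyltransferase of H3 lysine 9 in heterochromatin, had the lowest difference of the class. Its level was 3.75 to 5.29 (median 4.72) in DD pigs and 4.71 to 5.81 (median 5.03) in LW pigs. Its single probe was well above background on 1 of 10 DD and 10 of 11 LW arrays. The difference was -0.49 ± 0.17 (SE, adjusted p = 0.0503), with -0.09, -0.58 and -0.80 on chips 1 to 3. SETD7, which methylates H3 lysine 4 and other proteins, was well above background on 1 DD array and on no LW array, so no fold is given. SETD1A, an H3 lysine 4 methyltransferase, gave -0.45 ± 0.22 (SE, adjusted p = 0.145), with 9 of 10 DD pigs below the LW median, and its paralog SETD1B gave 0.15 (adjusted p = 0.638) from a probe well above background on 1 array of each breed. SETD6 gave -0.25 ± 0.10 (adjusted p = 0.0756) and EHMT1, the partner of EHMT2, -0.25 ± 0.11 (adjusted p = 0.112). SETD2, which sets trimethylation of H3 lysine 36, gave 0.11 (adjusted p = 0.392), and SETD3, an actin histidine methyltransferase read by 5 probes, -0.17 (adjusted p = 0.167). SETD5 gave -0.14 ± 0.13 (adjusted p = 0.476), and the 4 MLL genes, of a family best known for methylation of H3 lysine 4, ran from -0.04 to 0.24. EHMT2 (G9a), an H3 lysine 9 methyltransferase, was the only one of the 61 genes with a RefSeq position that lies among the SLA genes, on chromosome 7 at 23977683 to 23992673 (Sscrofa11.1). Its level was 7.40 to 8.24 in DD pigs and 7.58 to 8.32 in LW pigs, and its difference was -0.08 ± 0.11 (SE, adjusted p = 0.635). The 3 EHMT2 probes gave -0.16, -0.25 and 0.18, all with adjusted p above the threshold.

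**Figure D3:**
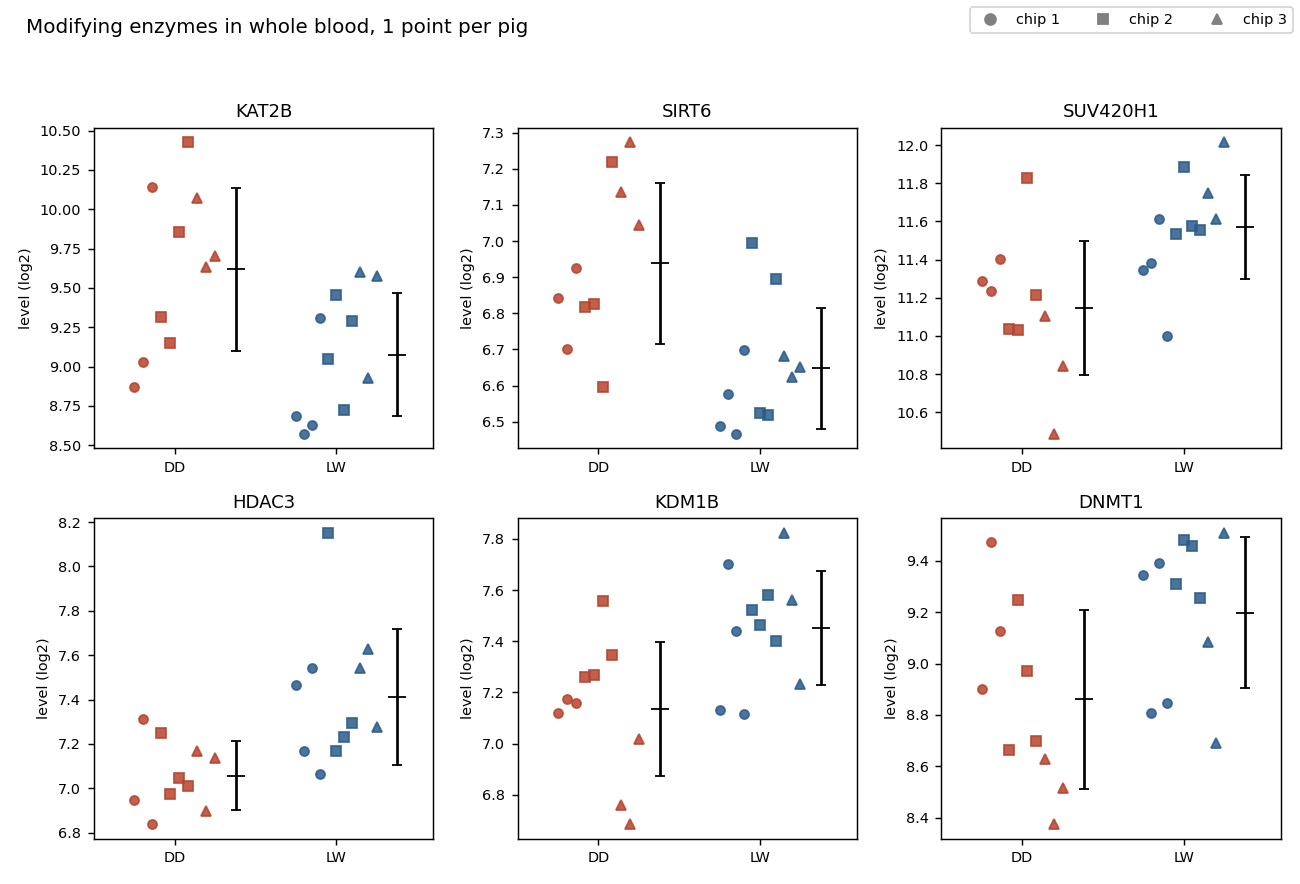
Log2 level of 6 enzyme genes, 1 point per pig, with the mean and SD of each breed as bars and the chip as the marker shape. DD pigs are higher for KAT2B and SIRT6 and lower for SUV420H1, HDAC3 and KDM1B, and the breeds overlap in each. DNMT1, not called, is the sixth.

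Demethylases and other JmjC proteins numbered 17, with KDM1B lower in DD pigs. KDM1B (LSD2) removes methyl groups from H3 lysine 4. Its level was 6.68 to 7.56 (median 7.17) in DD pigs and 7.12 to 7.82 (median 7.46) in LW pigs. The difference was -0.33 ± 0.10 (SE, adjusted p = 0.034), with -0.20, -0.14 and -0.72 on chips 1 to 3, and it was -0.16 (adjusted p = 0.764) with brightness in the model. The call was lost without the sow block (adjusted p = 0.0551) and on litter means (adjusted p = 0.0573). It was not called without DD_01, DD_10, DD_19, DD_21, DD_23, LW_04, LW_05, LW_14, LW_18 or LW_22, with a highest adjusted p of 0.0722. Its 3 probes gave -0.14, -0.33 and -0.51. The first and the last of these are reverse complements over 59 bases, shown in capitals, so they read opposite strands of the same stretch and only 1 of them reads the KDM1B strand.
KDM1B probe 1: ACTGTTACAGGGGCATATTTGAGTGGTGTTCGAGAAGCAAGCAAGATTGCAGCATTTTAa
KDM1B probe 2: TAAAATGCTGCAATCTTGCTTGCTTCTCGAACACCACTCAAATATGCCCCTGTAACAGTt
Probe 1 gave -0.51 (adjusted p = 0.0491) and was well above background on 18 arrays. Probe 2, on the other strand, gave -0.14 (adjusted p = 0.429) and was well above background on all 21. The gene value averages both. No other gene of the 76 had probes on opposite strands that share an exact run of at least 20 bases. KDM5B also has probes on opposite strands, which match over a shorter exact run and with a mismatch.

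KDM1A (LSD1), its paralog in the CoREST complex, gave -0.31 ± 0.14 (adjusted p = 0.107), with all 3 probes lower. JMJD1C had 7 probes, all lower in DD pigs, from -0.07 to -0.49, with 1 past the threshold and a mean of -0.22 ± 0.11 (SE, adjusted p = 0.133). JMJD8 had the lowest difference of the class, -0.38 ± 0.22 (adjusted p = 0.206). JMJD4 gave -0.28 ± 0.12 (adjusted p = 0.0928), with 9 of 10 DD pigs below the LW median. JMJD7-PLA2G4B names a readthrough of 2 genes and gave -0.09 (adjusted p = 0.797). KDM6A (UTX), an X-linked demethylase of H3 lysine 27, was well above background on 4 of 10 DD and on 0 of 11 LW arrays. Levels were 5.60 to 6.05 in DD_06, DD_10, DD_19 and DD_23, 3.35 to 4.52 in the other 6 DD pigs and 3.86 to 4.57 in LW pigs. The DD and LW medians were 4.45 and 4.39, the breeds did not differ past the threshold (adjusted p = 0.158), and no fold is given. KDM6B (JMJD3), which acts on the same mark and is induced in activated macrophages, gave 0.24 ± 0.16 (adjusted p = 0.275). KDM4B gave 0.02 ± 0.10 (adjusted p = 0.922). The other KDM genes, KDM2A, KDM3A, KDM3B, KDM4A, KDM4C, KDM5A and KDM5B, ran from -0.22 to 0.03. KDM3A was well above background on 1 LW array and on no DD array and has no fold. KDM5C, also X-linked, averaged 0.17 over 4 probes (adjusted p = 0.218), of which 1 was higher at 0.53 (adjusted p = 0.0312) and another gave -0.14 (adjusted p = 0.245).

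No arginine methyltransferase and no DNA methylation gene passed the threshold. PRMT5, which sets symmetric dimethylarginine, gave -0.25 ± 0.20 (SE, adjusted p = 0.376), PRMT10 -0.20 ± 0.13 (adjusted p = 0.262), PRMT3 -0.13 ± 0.12 (adjusted p = 0.482), PRMT6 -0.18 ± 0.12 (adjusted p = 0.312) and PRMT2 0.03 ± 0.18 (adjusted p = 0.915). All 4 DNA methylation genes were below 0, but TET2 was above 0 with scaling to the 75th percentile (0.0228), and TET2 and DNMT3B were above 0 with brightness in the model. DNMT1 copies methylation to the new DNA strand after replication. Its level was 8.37 to 9.47 (median 8.80) in DD pigs and 8.69 to 9.51 (median 9.31) in LW pigs, and 9 of 10 DD pigs lay below the LW median. All 6 DNMT1 probes were lower, from -0.18 to -0.47, and 3 passed the threshold, but the gene gave -0.33 ± 0.13 (SE, adjusted p = 0.0697). On chip 1 it was 0.07, and on chips 2 and 3 it was -0.48 and -0.59. The de novo methyltransferases gave -0.18 ± 0.10 for DNMT3A (adjusted p = 0.192) and -0.11 ± 0.18 for DNMT3B (adjusted p = 0.679), whose tested probe was well above background on 1 array. TET2, which oxidizes methylcytosine and is often mutated in blood cancers, gave -0.04 ± 0.12 (adjusted p = 0.819).

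The MLLT genes were not called. MLLT6, read by a probe that shares 59 of 60 bases with an unnamed probe, gave 0.71 ± 0.27 (SE, adjusted p = 0.0663), with 0.09 and 0.23 on chips 1 and 2 and 2.05 on chip 3, and 0.02 with brightness in the model. MLLT3 gave -0.28 ± 0.11 (adjusted p = 0.0644). MLLT1 was well above background on 1 LW array and no DD array and has no fold. MLLT11 averaged 0.01 over probes that disagreed, with 1 lower (-0.39, adjusted p = 0.0188) and 1 higher (0.87, adjusted p = 0.027), the only gene of the 76 with calls in both directions. Over all 145 probes of these genes that were tested, 19 passed the threshold (9 higher and 10 lower), beside 21.7% of the array. Of 34 genes with at least 2 tested probes, 26 had all probes on the same side of 0.

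**Figure D4:**
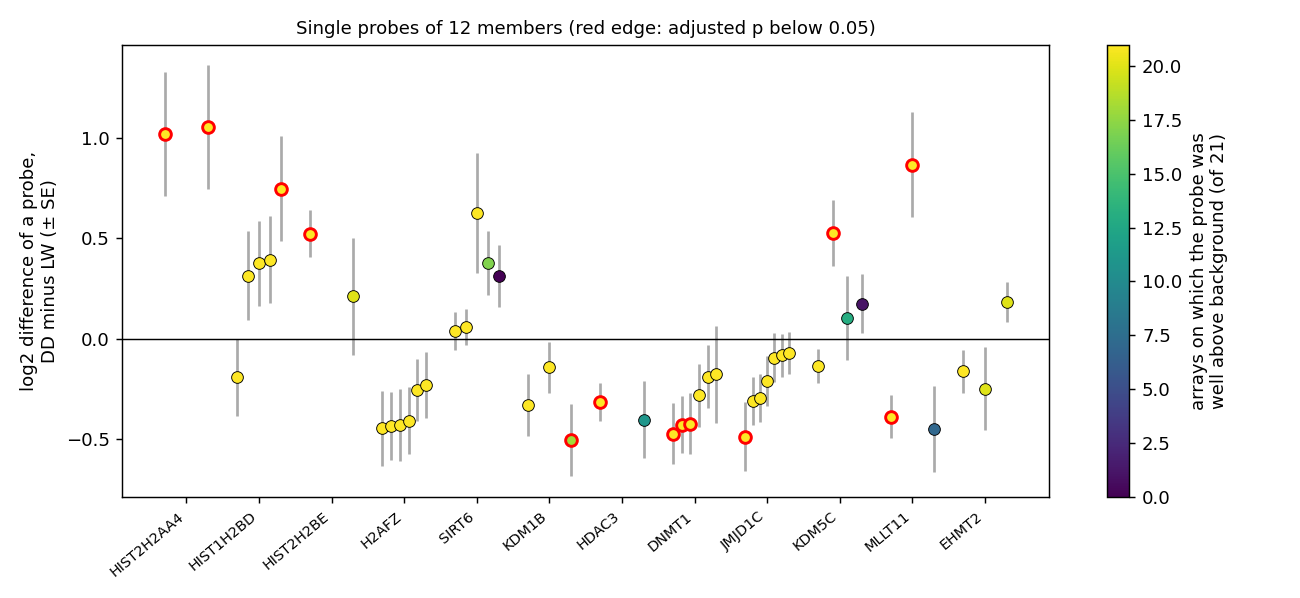
Log2 difference, DD minus LW, with its SE (bars) for the single probes of 12 genes, coloured by the number of arrays on which the probe was well above background. A red edge marks an adjusted p below 0.05. The 6 DNMT1 and 6 H2AFZ probes lie below 0, and the MLLT11 probes lie on both sides.

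The 6 called genes kept their sign on all 3 chips, as did 26 of the 71 genes. KAT2B and HDAC3 varied least between chips. With brightness in the model all 6 kept their sign and came closer to 0, and none was called, beside 2.19% of all features.

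**Figure D5:**
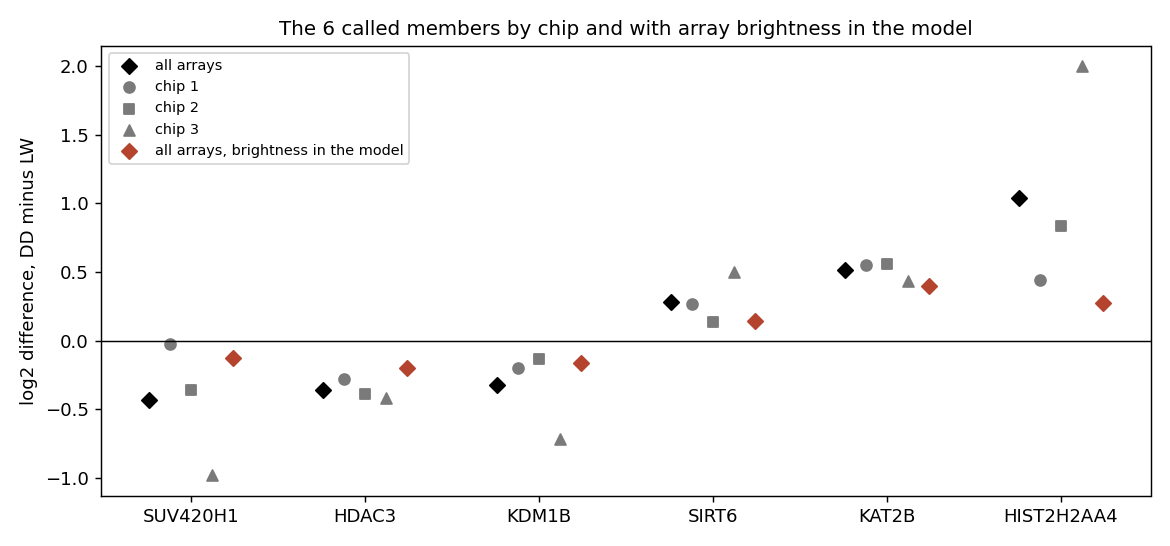
Log2 difference, DD minus LW, of the 6 called genes over all arrays (black), within each chip (grey) and with array brightness as a covariate (red). On chip 3 the differences reach 2.00 for HIST2H2AA4 and -0.98 for SUV420H1.

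Other genes of the same pathways were taken from lists of partners, each to be read beside the 21.0% of all features called and their median of -0.04. Histone chaperones and histone mRNA factors had 4 of 13 tested genes called. NPAT, which activates replication-dependent histone genes, was higher in DD pigs (0.95 ± 0.27, SE, adjusted p = 0.0242), and the acidic nuclear phosphoproteins ANP32A (-0.44, adjusted p = 0.0127) and ANP32B (-0.33, adjusted p = 0.033) and the H3 and H4 chaperone NASP (-0.43, adjusted p = 0.0259) were lower. The DNA methylation readers and partners had 4 of 14 called, with MBD3 (0.41) and GADD45B (0.49) higher and MBD1 (-0.51) and ZBTB33 (-0.32) lower. Acetyltransferases and bromodomain readers outside the name rule had 5 of 20 called, with BRD1 (0.55) and EPC2 (0.36) higher and CREBBP (-0.35), BRD7 (-0.38) and BRPF1 (-0.35) lower. Of the methyltransferase partners, 2 of 12 were lower, the MLL complex subunits ASH2L (-0.44, adjusted p = 0.0216) and MEN1 (-0.29, adjusted p = 0.0345). Polycomb had 1 of 18 called, RNF2 (-0.36), with 14 of 18 below 0 and a median of -0.21. The deacetylase corepressors had 1 of 15, TBL1XR1 (0.33), and the demethylase list had 1 gene tested and 0 called. Cell cycle genes had 1 of 14 called, PCNA (-0.46, adjusted p = 0.0336), with 13 of 14 below 0 and a median of -0.32.

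Markers of 7 blood cell types are given beside the 21.0% of all features called, a share that only the erythroid and T cell markers exceeded. Erythroid markers had 3 of 10 tested genes higher (EPB42, CA1 and CA2), and their mean level ran from 9.25 to 10.6 in DD pigs and from 9.00 to 10.2 in LW pigs. T cell markers had 4 of 12 lower (CD3D, CD3G, CD247 and CD8A), with mean levels of 7.82 to 9.24 in DD pigs and 8.26 to 9.31 in LW pigs. Natural killer and cytotoxic (1 of 7, CTSW), monocyte (1 of 7, CD163) and platelet markers (1 of 9, PPBP) each had 1 gene called, which was lower. B cell (0 of 7) and granulocyte markers (0 of 10) had none called. Called or not, 7 of 10 erythroid (median difference 0.43), 6 of 7 B cell (0.10) and 5 of 7 monocyte markers (0.08) were above 0. Below 0 were 12 of 12 T cell (-0.44), 5 of 7 natural killer and cytotoxic (-0.32) and 7 of 9 platelet markers (-0.15). Granulocyte markers had 5 above and 5 below (0.04). Every marker tested was well above background on at least 1 array. The part of cell composition in the differences of histone and enzyme genes was not tested.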

How the data were processed

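RNA of whole blood from 10 DD and 11 LW pigs was read on one-colour pig arrays. The paper states that more pigs were hybridised and that outlier arrays were removed after a quality check, so these are the arrays that were kept. The same check found the technical bias of a chip that is given above. The deposited log2 values were made by the authors with normexp background correction and quantile normalization between arrays. Spot intensities and the flags for signal well above background were deposited as written by Agilent Feature Extraction 10.7.3.1. Chip and sow came from the study's animal table.

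The 25% of probes with the lowest mean were removed, which kept 45228 of 60305 probes, and probes of 1 gene name were averaged into 35578 features. Blank names and the name gi were replaced by the probe name. Whether each probe reads the strand of its gene was not tested, so a gene value can average probes of both strands. DD and LW pigs were compared with limma 3.58.1 in R 4.3.3 (lmFit, eBayes), with chip in the model and sow as a random block (duplicateCorrelation, statmod 1.5.0, consensus correlation -0.11). P-values were adjusted by Benjamini-Hochberg over all features, or over all kept probes for single probes, with a threshold of 0.05. No fold was given for a gene well above background on no array of a breed. The fit was tested on simulated data that held chip shifts but no litter effect and no brightness gap between breeds. The simulation therefore cannot speak to the sow block or to brightness.

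Named genes were the called histones, and in each enzyme class the called genes, those with the highest and lowest difference and 1 or 2 of high mean level. Every DNMT and TET gene and genes among the SLA genes were added. Genes named for their single probes were chosen after their values were seen. The genes and lists were chosen with earlier results of these data known. Positions are from RefSeq (Sscrofa11.1) and were matched by symbol for 61 of 76 genes. Alternatives were other normalizations, filters, probe rules, blocks, chips and a brightness covariate, and each pig was left out in turn. Pigs of 1 litter are siblings. Since the sow correlation was negative, the block did not widen the errors for this, and fits without it and on litter means are given beside the calls.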

Additional observations from a re-analysis of the deposited data

Results flagged for a closer look

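Levels of the 32 named genes and array brightness were tested for a sample apart from its group, 33 tests in all. In 2 of them 1 DD pig stood apart from the other DD pigs, and chance gives about 1 such group in 20. Both were DD_21, the dimmest array. SIRT3 was 6.74 in DD_21, and the next DD pig was at 7.29, a gap of 0.476 of the DD range. PRMT2 was 5.73 in DD_21, and the next DD pig was at 4.75, a gap of 0.55 of the range. LW pigs, with 11 arrays, were not tested in this way.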

How the results depend on the processing

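Of the values of the 32 named genes under settings other than a left-out pig, 381 kept direction and side of the threshold, 40 lost the call, 26 gained it and 27 changed sign. With 1 pig left out, 569 kept both, 56 lost the call, 19 gained it and 28 changed sign. Histone genes called numbered 2 with scaling to the 75th percentile, with offset 50, with the filter on signal well above background and with litter means, 3 with the probe of the highest mean, and 0 with no chip term, without chip 3 and with brightness. Enzymes called numbered 8 with scaling to the 75th percentile, 9 with offset 50, 1 with no filter, 2 with no sow block, 2 with litter means, 0 with no chip term, 3 without chip 1, 0 without chip 3 and 1 with brightness. All features called numbered 7321 with scaling to the 75th percentile, 8004 with offset 50 and 8487 with the filter on signal well above background. They numbered 7967 with the probe of the highest mean, 6850 with litter means, 5106 with no sow block and 7987 without chip 1. They numbered 4670 with no filter, 2515 of symbols only, 1929 with no chip term, 537 without chip 3 and 780 with brightness.

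Scaling to the 75th percentile moved the median of all features from -0.04 to 0.06. Signs changed only in uncalled genes. With brightness the values were H3F3A -0.0578, HDAC1 0.028, KAT5 0.0275, SETD5 0.0494, KDM6B -0.0808, PRMT2 -0.0139, PRMT5 0.135, PRMT10 0.0804, PRMT3 0.0904, TET2 0.19, DNMT3B 0.184 and EHMT2 0.0703. Without chip 1 they were H3F3B -0.114 and KDM4B -0.0151. Without chip 2 they were SIRT7 0.103, SETD5 0.0523, KDM4B -0.0877 and EHMT2 0.105. Without chip 3 they were KAT2A -0.034, PRMT2 -0.122, PRMT3 0.0714, TET2 0.0874 and DNMT3B 0.0298. PRMT2 was -0.0551 from scanner intensities and -0.00232 with litter means. With scaling to the 75th percentile TET2 was 0.0228 and EHMT2 0.0243. The cause was not tested.

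Leaving out each pig gave 0 to 3 histone genes, 0 to 11 enzymes and 3761 to 10051 features called. In the same fits DNMT3B ran from -0.202 to 0.018, H3F3B from -0.131 to 0.0722, KAT2A from -0.0373 to 0.0728, KDM4B from -0.0263 to 0.0828, PRMT2 from -0.121 to 0.104 and TET2 from -0.0889 to 0.0143. No paired analysis was possible because no animal number occurs in both breeds. Probes near background limit KAT2A, SETD7, KDM6A, PRMT2 and DNMT3B.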

Other observations

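Histone transcripts that carry no histone symbol were found through the description of the probe. Of 32 such features, 29 were tested and 1 was called, beside 21.0% of all features. It was an H2A transcript that was lower in DD pigs (-0.53, limma adjusted p = 0.0176). Their median difference was -0.08, with 9 above 0 and 20 below. None of the 7 H4 features and none of the 7 tested H2B features was called.

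Some symbols on the array are written in other letter case and were not taken by the name rule. They have 25 probes, of which 20 were tested and 13 were lower in DD pigs. Hdac10, a deacetylase of polyamines, was the 1 called (0.51, limma adjusted p = 0.0422), beside 21.7% of all single probes on the array. The probe named suv420h1 gave 0.41 (adjusted p = 0.0618), opposite in sign to the called SUV420H1 probe. The probe named Kdm6a was well above background on all 21 arrays and gave -0.16 (adjusted p = 0.488), while the KDM6A probe was well above background on 4 DD arrays only. Whether the probes of each pair read the same transcript was not tested.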
